A study of Caenorhabditis elegans with 2 samples.

Results

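Maternal RNA-binding proteins of the oocyte and early embryo were examined as a set of 10 genes: oma-1, oma-2, mex-3, mex-5, mex-6, pos-1, pie-1, spn-4, puf-5 and puf-11. They were picked out by gene name, with earlier results of these data known, and all 10 had a row among the 19874 genes analysed. The 2 samples were replicates 1 and 2 of 1 strain of the nematode Caenorhabditis elegans, daf-2(e1370);daf-12(m20), with the mutation e1370 in the insulin-like receptor gene daf-2 and the mutation m20 in daf-12, which encodes a nuclear receptor for steroid hormones. The worms were grown at 20 °C as mixed-stage cultures on Escherichia coli OP50, and total RNA was sequenced after TruSeq library preparation. The alleles are carried in every cell of the animal, and wild-type or single-mutant worms are not analysed here, so the values give levels in this double mutant and no effect of the mutations. Nothing in the labels ties the replicates to separate cultures, and the spread between them may be purely technical.

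In the hermaphrodite gonad, germ cells pass from mitosis through meiotic prophase to become oocytes, and transcription stops before the oocyte is fertilised. The early embryo therefore relies on mRNAs loaded by the mother, and RNA-binding proteins decide which of them are translated, where and when, mostly through sites in their 3′ untranslated regions (UTRs). Many of these proteins carry CCCH zinc fingers, in which cysteines and a histidine hold a zinc ion, while others use KH, RRM or Pumilio (PUF) domains. Several are known to be inherited unequally when the zygote divides, so that the anterior, somatic daughter and the posterior, germ line daughter translate different mRNAs.

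Expression was deposited as RPKM, reads scaled to gene length and library size, which allows levels to be compared between genes. The spacing of the low values put the depth near 10500000 reads for replicate 1 and near 14700000 for replicate 2. At these depths a count of 3 reads over 1 kb of coding sequence gave 0.285 RPKM in replicate 1 and 0.205 in replicate 2, and every one of the 10 genes lay far above this floor in both replicates. Read numbers below are estimates from coding lengths, and the intervals made from them are exact Poisson intervals at 95% that cover counting error only. Over the 733 genes that had 5000 reads or more in all, the log2 ratio of the replicates had an SD of 0.11, where sampling alone gives 0.03, so sampling noise was smaller than the spread between replicates. In RNA from whole animals, fewer cells of a type and less RNA per cell cannot be told apart.

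In the WBcel235 annotation the 10 genes were spread over 5 chromosomes. pos-1 lies on chromosome V from 8414086 to 8415254, oma-2 on V from 8029439 to 8031214, and spn-4 on V, on the minus strand, from 6783187 to 6784903. mex-5 lies on chromosome IV from 13353723 to 13356104, oma-1 on IV from 8888976 to 8890999, and puf-11 on IV from 6421585 to 6423497. puf-5 lies on chromosome II from 8575541 to 8577787 and mex-6 on II from 9524174 to 9526359. mex-3 lies on chromosome I from 127285 to 134270 and pie-1 on chromosome III from 12426893 to 12429195. None lies on the X chromosome, which holds 13.7% of the genes analysed that were matched to the annotation.

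The genes have long annotated 3′ UTRs. Their coding length had a median of 1278 bp, beside 1014 bp for 17946 protein-coding genes of the table, and the median number of exons was 5 in both. The annotated 3′ UTR had a median of 418.5 bp in the 10 genes, beside 125 bp in the 15377 genes that have one. It was longer than that median in 9 of the 10, with the longest in mex-3 at 688 bp, followed by mex-5 at 561 bp and mex-6 at 484 bp. pie-1 was the exception, at 108 bp. mex-3 stood apart in its span of 6986 bp and its 5 annotated transcripts, whereas the other genes spanned 1169 to 2382 bp.

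**Figure D1:**
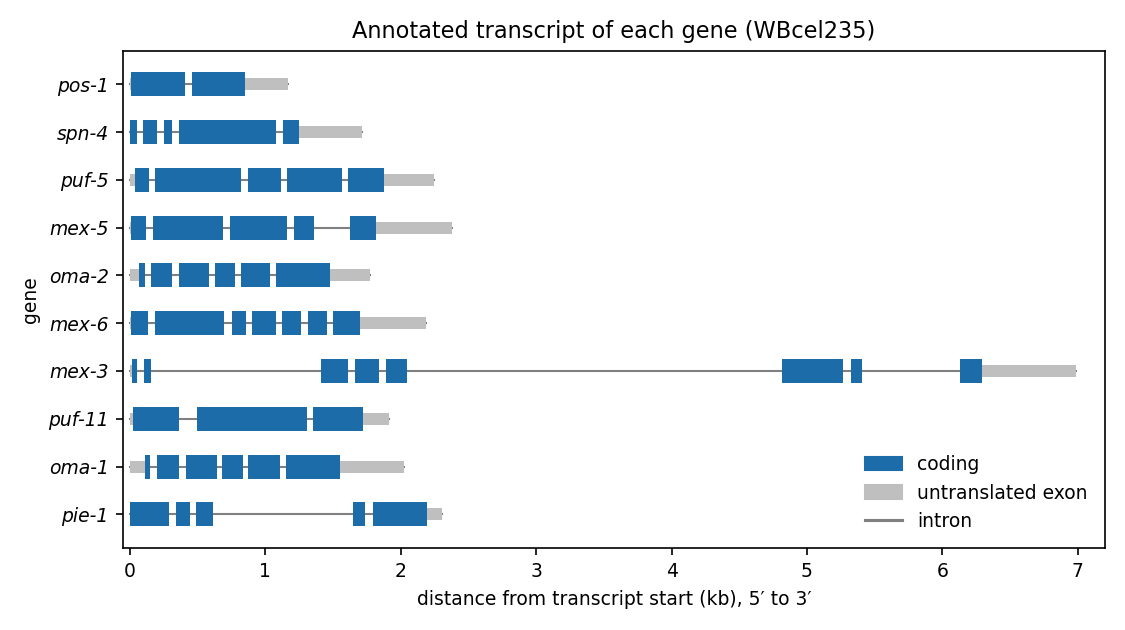
Annotated transcript of each gene, drawn to scale from its start to its end in kb (x axis), with genes in order of mean level (y axis). Blue boxes are coding, grey boxes are untranslated and lines are introns; the grey 3′ end is longest in mex-3 (688 bp) and short in pie-1 (108 bp).

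Of the set, 6 genes encode CCCH zinc finger proteins. pos-1 encodes a protein that is enriched in the posterior of the embryo and is needed for the fates of the germ line blastomeres. It had 247 RPKM in replicate 1 and 231 in replicate 2, and was the highest of the 10 genes in both. Its mean was 239 ± 11.3 RPKM (SD, n = 2), which placed it at rank 688 of all genes analysed. The estimated 2068 reads of replicate 1 and 2689 of replicate 2 gave intervals of 236 to 258 RPKM and 222 to 240 RPKM.

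pie-1, whose protein keeps transcription silent in the germ line blastomeres, was the lowest of the 10. It had 24.9 RPKM in replicate 1 and 25.05 RPKM in replicate 2, a mean of 24.995 ± 0.08 RPKM (SD, n = 2). Its replicates nearly coincided, although about 265 reads in replicate 1 gave an interval as wide as 22.0 to 28.1 RPKM. With rank 5002 it still lay above 74.8% of all genes. pos-1 exceeded pie-1 by 9.90-fold in replicate 1 and 9.22-fold in replicate 2, which was the full range of the set.

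mex-5 and mex-6 encode closely related proteins that act together in the zygote to restrict germ line factors to the posterior. mex-5 had 126 RPKM in replicate 1 and 128 RPKM in replicate 2 (mean 127 ± 1.10, SD, n = 2). mex-6 had 73.8 RPKM in replicate 1 and 72.1 RPKM in replicate 2 (mean 73.0 ± 1.17, SD, n = 2). mex-5 was thus the higher of the pair in each replicate, and its ratio to mex-6 was 1.74 ± 0.04 (SD, n = 2). Together they had 200.02 RPKM in replicate 1 and 199.92 RPKM in replicate 2. Reads shared by this pair may have been split or dropped in counting, which the SD of the ratio would not show.

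oma-1 and oma-2 encode redundant proteins required for oocyte maturation, which are degraded soon after fertilisation. oma-2 had 109 RPKM in replicate 1 and 105 RPKM in replicate 2 (mean 107 ± 2.64, SD, n = 2). oma-1 had 63.6 RPKM in replicate 1 and 57.7 RPKM in replicate 2 (mean 60.6 ± 4.13, SD, n = 2). The values of this pair did not overlap, and oma-2 was the higher by a ratio of 1.77 ± 0.08 (SD, n = 2), close to the ratio of mex-5 to mex-6. Sharing of reads between oma-1 and oma-2 was not measured either. The 6 CCCH genes together made up 58.9% of the summed RPKM of the set in replicate 1 and 60.3% in replicate 2, about their share of the 10 genes.

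spn-4 encodes a protein with an RRM domain that acts in spindle orientation and in the control of maternal mRNAs in the early embryo. It had 169 RPKM in replicate 1 and 148 RPKM in replicate 2 (mean 159 ± 15.0, SD, n = 2), second to pos-1 in both. Its replicates differed by more, relative to the mean, than those of any other gene of the set, with a coefficient of variation of 9.45%. mex-3 encodes a KH domain protein that represses translation of pal-1 mRNA in the anterior of the embryo and helps to keep germ cells undifferentiated. It had 70.6 RPKM in replicate 1 and 72.0 RPKM in replicate 2 (mean 71.3 ± 0.96, SD, n = 2), within 2% of each other.

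The PUF genes encode Pumilio-type proteins that repress mRNAs during oogenesis. puf-5 had 141 RPKM in replicate 1 and 126 RPKM in replicate 2 (mean 134 ± 10.7, SD, n = 2). puf-11 had 68.5 RPKM in replicate 1 and 61.4 RPKM in replicate 2 (mean 65.0 ± 5.01, SD, n = 2). Both were lower in replicate 2, and the ratio of puf-5 to puf-11 stayed at 2.06 in replicate 1 and 2.05 in replicate 2.

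Ordered by mean level, the genes ran pos-1, spn-4, puf-5, mex-5, oma-2, mex-6, mex-3, puf-11, oma-1 and pie-1. Replicate 1 gave the same order, and replicate 2 differed from it only in placing mex-5 above puf-5. Of the 9 neighbouring pairs in this order, 7 had replicate values that did not overlap. The values overlapped for puf-5 and mex-5, whose ratio was 1.12 in replicate 1 and 0.99 in replicate 2, so this pair did not differ beyond its spread. They also overlapped for puf-11 and oma-1, although puf-11 was the higher within each replicate, by ratios of 1.08 and 1.06, and the counting intervals overlapped in both. mex-6 and mex-3 were separated by a gap of only 0.17 RPKM, and their counting intervals overlapped in both replicates. For mex-3 and puf-11 the counting intervals overlapped in replicate 1. The wider steps were those between pos-1 and spn-4, a ratio of means of 1.504, between oma-2 and mex-6, a ratio of 1.47, and between oma-1 and pie-1, a ratio of 2.43.

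**Figure D2:**
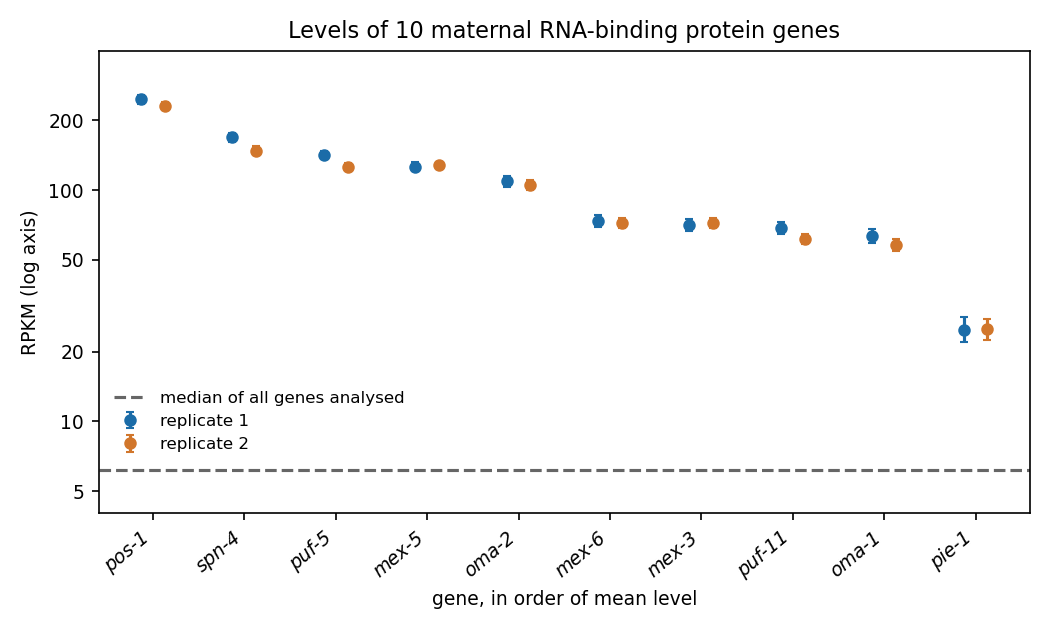
RPKM of each gene (y axis, log scale) in replicate 1 and replicate 2, with genes in order of mean level (x axis) and exact Poisson 95% intervals as bars. pos-1 lies at 247 and 231 RPKM and pie-1 at 24.9 and 25.05 RPKM, all above the dashed median of all genes at 6.17 RPKM.

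As a set the genes were abundant. Their median was 90.05 RPKM, beside 6.17 RPKM for all 19874 genes, and the median was 91.4 RPKM in replicate 1 and 88.7 in replicate 2. All 10 had a mean of at least 10 RPKM, as did 42% of all genes, and 9 had a mean of at least 50 RPKM, as did 14.1% of all genes. The exception at 50 RPKM was pie-1. Their summed level was 1094 RPKM in replicate 1 and 1026 in replicate 2, or 0.105% and 0.096% of all RPKM, and pos-1, spn-4 and puf-5 held 50.9% of that sum in replicate 1 and 49.2% in replicate 2.

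A comparison of the replicates is the one repeat that the design holds, and no test was possible with 1 group of 2 samples. On the log2(RPKM + 1) scale, 7 of the 10 genes were lower in replicate 2, as were 55.5% of the 14313 genes with a mean of at least 1 RPKM. The 3 that were higher in replicate 2 were mex-5, mex-3 and pie-1, with log2 ratios of 0.02, 0.03 and 0.01, and these ratios turned to -0.01, -0.001 and -0.02 when both replicates were scaled to the same total. That scaling lowers the ratios of these genes alike and puts all 10 below 0, as it does 61.6% of all genes tested. The median log2 ratio of replicate 2 to replicate 1 was -0.07 for the set and -0.02 for all genes. None of the 10 lay beyond 2-fold, as 0.713% of all genes tested did.

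Set against counting error, 5 genes were lower in replicate 2 and none was higher. Among the 6382 genes that had 500 reads or more in all, 16.5% were lower and 10.5% higher by the same measure. The 10 genes had 635 to 5543 reads, and counting intervals narrow as reads increase. No share was taken at matched depth, so these counts do not show an excess in the set. The 5 genes were spn-4, at a log2 ratio of RPKM of -0.19 with a counting interval of -0.28 to -0.10, puf-5, puf-11, oma-1 and pos-1. For oma-1 the interval ended at -0.005, close to no difference. For mex-5, oma-2, mex-6, mex-3 and pie-1 the interval included 0. pie-1 had the fewest reads, 635 over both replicates, and its interval of -0.23 to 0.24 allowed a difference of the size seen in spn-4. Since the replicates of deep genes varied by more than counting, these intervals understate the full error.

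**Figure D3:**
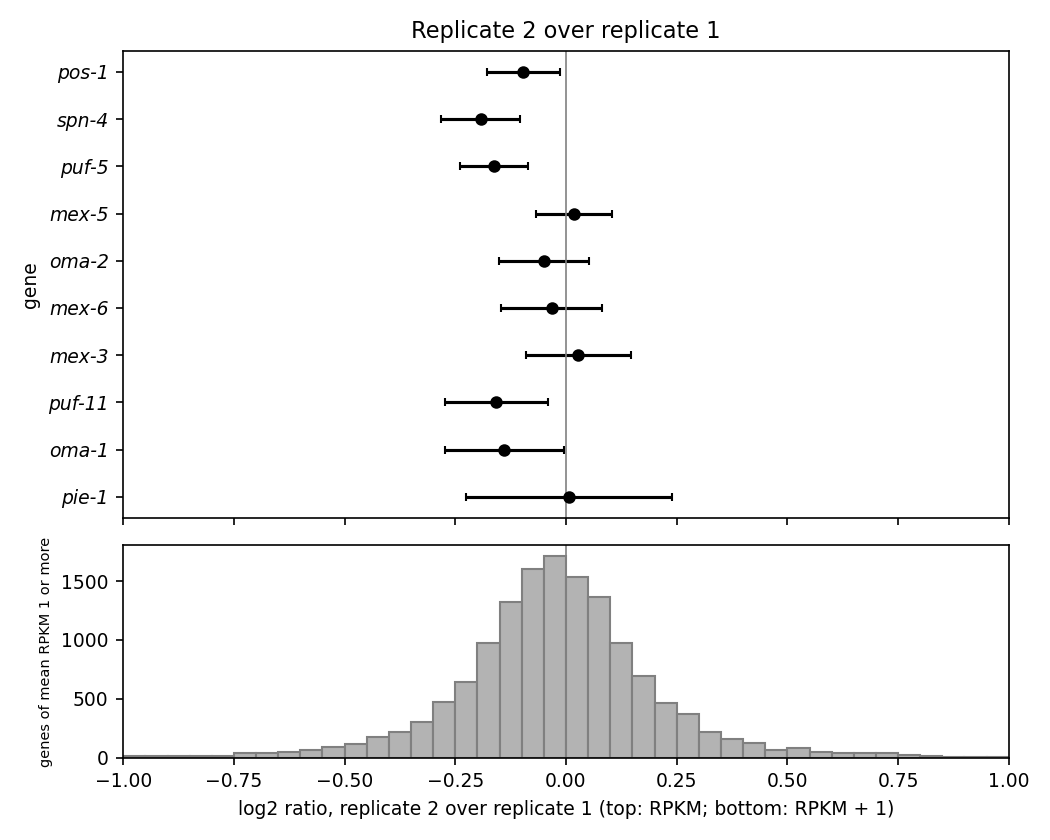
Top, log2 ratio of replicate 2 to replicate 1 for each gene (x axis; genes on the y axis) with its 95% counting interval. Bottom, number of genes by the same ratio on the RPKM + 1 scale for the 14313 genes with a mean of at least 1 RPKM; the range of the 10 genes, -0.19 to 0.03, falls within the bulk of that distribution.

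Relatives of these genes had lower medians. Of the 7 listed CCCH finger relatives, 6 had a row under their own name, with a median of 15.6 RPKM and values from 1.61 RPKM for dct-13 to 75.75 RPKM for ccch-3. moe-3, a close relative of oma-1 and oma-2 that is also expressed in oocytes, had 24.7 RPKM in replicate 1 and 29.7 RPKM in replicate 2, so oma-2 exceeded it by a ratio of 3.98 ± 0.62 (SD, n = 2). The remaining one, mex-1, had only rows named by coordinates, and with the higher of these the median was 27.2 RPKM, a choice made after seeing the data.

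The 9 listed PUF relatives had a median of 14.9 RPKM, from 6.73 RPKM for fbf-1 to 57.6 RPKM for puf-12. puf-6 and puf-7, which act with puf-5 in late oogenesis, were at 29.9 ± 2.55 and 23.8 ± 1.53 RPKM (SD, n = 2), so puf-5 exceeded puf-6 by 4.47 ± 0.02 and puf-7 by 5.62 ± 0.09. puf-3, the closest relative of puf-11, had 8.05 RPKM in replicate 1 and 9.14 in replicate 2, and the ratio of puf-11 to puf-3 was 8.51 in replicate 1 and 6.72 in replicate 2. Reads shared by such similar genes may have been split or dropped in counting, which leaves each of these values uncertain. fbf-1 and fbf-2, which maintain germ line stem cells, were at 6.73 ± 0.16 and 7.03 ± 0.73 RPKM (SD, n = 2), near the median of all genes at 6.17 RPKM. puf-10, annotated as a pseudogene, was at 10.1 ± 1.45 RPKM. puf-8, another germ line member of the family, was at 24.4 ± 0.45 RPKM (SD, n = 2), close to pie-1.

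Regulators of the maternal proteins were all expressed. The median of the 20 listed genes was 33.6 RPKM, and 16 lay at or above the level of pie-1, which 25.2% of all genes reached. gld-1, a translational repressor of the meiotic germ line, was at 108 ± 5.56 RPKM (SD, n = 2), while lin-41, a regulator of oocyte growth and maturation, was at 30.9 ± 1.02 RPKM. mbk-2, the kinase that marks OMA-1 for degradation, was at 45.6 ± 0.81 RPKM. egg-3, egg-4 and egg-5, which hold MBK-2 at the oocyte cortex until meiosis proceeds, were at 41.4 ± 1.41, 28.8 ± 4.57 and 26.6 ± 1.62 RPKM. par-1, the polarity kinase that acts on MEX-5, was at 30.4 ± 0.04 RPKM, and plk-1, the Polo kinase that binds MEX-5, was at 64.8 ± 5.14 RPKM. zif-1, the adaptor through which CCCH proteins are degraded in somatic blastomeres, was at 22.0 ± 1.14 RPKM, and its partner cul-2 at 32.9 ± 0.24 RPKM. par-5, a widely expressed 14-3-3 gene, was the highest of the list, at 784 ± 28.8 RPKM, and gld-2, a cytoplasmic poly(A) polymerase gene, was the lowest, at 14.8 ± 1.75 RPKM. Between the replicates, 14 of the 20 were lower in replicate 2, beside the 55.5% of all genes.

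The mRNAs and proteins known as targets or partners were expressed at moderate levels. The 12 listed genes ranged from 12.2 to 60.2 RPKM, with a median of 28.45 RPKM. None reached the median of the 10 maternal genes, a level that 8.36% of all genes reached, so with 12 genes this does not set them apart. skn-1 and pal-1, transcription factor genes whose maternal mRNAs specify blastomere fates, were at 60.2 ± 0.28 and 57.1 ± 3.09 RPKM (SD, n = 2). neg-1, which had its row under the sequence name F32D1.6, was at 45.7 ± 1.41 RPKM. mei-1, a meiotic spindle gene whose product is removed before mitosis, was at 36.6 ± 3.26 RPKM, and mom-2, a Wnt ligand gene, at 34.9 ± 1.62 RPKM. glp-1, a Notch receptor gene translated in the anterior of the embryo, was at 15.45 ± 0.58 RPKM, and apx-1, which encodes a Notch ligand, at 14.7 ± 0.17 RPKM. taf-4, whose protein is held in the cytoplasm by OMA-1, was at 15.6 ± 0.11 RPKM. nos-2, which acts in the primordial germ cells and is repressed in oocytes, had 10.5 RPKM in replicate 1 and 15.75 RPKM in replicate 2, on about 266 reads in all. Its replicates were the farthest apart of the list, at a log2(RPKM + 1) ratio of 0.55, toward replicate 2 where most of the maternal genes were lower.

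Markers of the neighbouring stages were read beside the set. For the 9 oocyte and eggshell genes the median was 126 RPKM. All of them lay above the level of pie-1, which 25.2% of all genes reached. They ran from 28.5 RPKM for chs-1, the eggshell chitin synthase gene, to 718 RPKM for perm-2. rme-2, the yolk receptor gene of the oocyte, was at 79.3 ± 8.03 RPKM (SD, n = 2). For the 7 meiotic genes it was 13.5 RPKM, and the highest, him-3, was at 42.8 ± 0.40 RPKM. Genes switched on in the early embryo itself were low: 9 were measured, with a median of 0.27 RPKM. Of these, 4 had a mean of at least 1 RPKM, as did 14313 of the 19874 genes analysed. The endoderm factor genes end-1 and end-3 had at most about 5 reads each over both replicates. med-1 was listed at 0 in replicate 2 and med-2 at 0 in replicate 1. The T-box genes tbx-37 and tbx-38 were at 1.70 ± 0.26 and 2.12 ± 0.49 RPKM, on about 41 and 50 reads in all, and sdz-38 at 1.05 ± 0.06 RPKM on about 16 reads. elt-7, which stays on in the intestine, was the highest of them, at 12.3 ± 2.33 RPKM. Sperm genes had a median of 2.58 RPKM over 8 genes and covered a range of 0.67 to 178 RPKM, and 6 genes of muscle, intestine, neuron and cuticle had a median of 149 RPKM. The median of the maternal genes, 90.05 RPKM, was reached by 8.36% of all genes. Of the 9 oocyte and eggshell genes, 6 lay above it, and rme-2, egg-3 and chs-1 lay below it. The RNA thus held oocyte markers within the range of the maternal genes or above it, with RNA of somatic and sperm genes beside them.

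Most markers of the oocyte and of meiosis were also lower in replicate 2. All 7 meiotic genes were lower there, as were 7 of 9 oocyte and eggshell genes, with median log2 ratios of -0.09 and -0.08, beside -0.07 for the 10 maternal genes, and 55.5% of all genes were lower. None of the 7 meiotic genes, with 478 to 944 reads over both replicates, differed beyond counting error. Of the 9 oocyte and eggshell genes, with 1734 to 18664 reads, 5 were lower and 2 higher beyond it. Among all genes with 500 reads or more, 16.5% were lower and 10.5% higher by this measure. Counting intervals narrow as reads increase, so these counts do not set the 2 lists apart. The summed level of the meiotic list was 150 RPKM in replicate 1 and 141 in replicate 2, and that of the oocyte list was 2296 RPKM and 2299 RPKM. The oocyte genes higher in replicate 2 were perm-2 and perm-4. The summed level of the somatic list was 4209 RPKM in replicate 1 and 4748 in replicate 2, and 3 of its 6 genes were higher in replicate 2. Most of that sum lay in asp-1, at 2387 and 2688 RPKM in replicates 1 and 2, and col-10, at 1429 and 1655 RPKM. snb-1 was the other gene higher in replicate 2, and unc-54, myo-3 and ges-1 were lower there. The part of these markers in the replicate difference of the maternal genes was not tested.

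**Figure D4:**
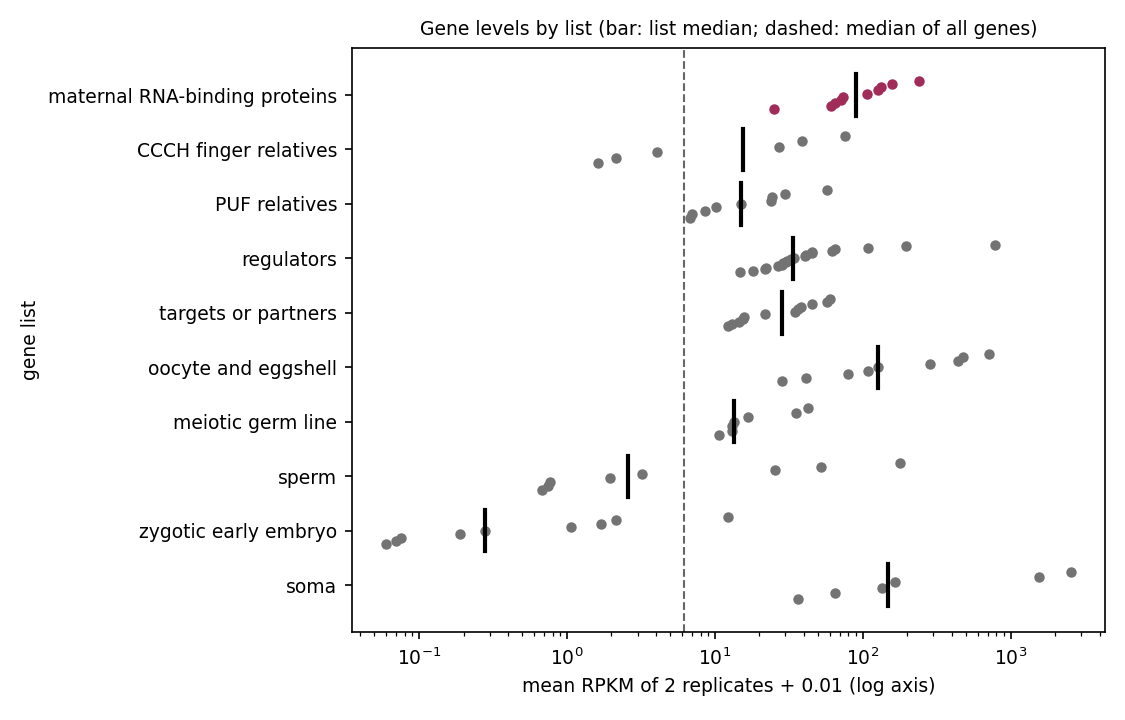
Mean RPKM of each gene (x axis, log scale, 0.01 added), by gene list (y axis), with a bar at each list's median and a dashed line at the median of all genes, 6.17 RPKM. The 10 maternal genes, median 90.05 RPKM, lie near the oocyte and eggshell genes, median 126 RPKM, and the zygotic genes of the early embryo lie at a median of 0.27 RPKM.

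For each maternal gene, the nearest of the other 83 listed genes in log2(RPKM + 1) over the 2 replicates was found. With only 2 samples, this measures closeness of level and of the replicate difference. The closest match of all was plk-1 to puf-11, at a distance of 0.007, with 68.4 RPKM in replicate 1 and 61.1 RPKM in replicate 2. gld-1 and the oocyte gene egg-1 were nearest to oma-2, at distances of 0.04 and 0.06. cbd-1, an eggshell gene, was nearest to mex-5, at 0.09, and cpg-1, an eggshell proteoglycan gene, nearest to pos-1, at 0.36. skn-1 and puf-12 were nearest to oma-1, and ccch-3 was nearest to both mex-6 and mex-3. The nearest to puf-5 was the muscle myosin gene unc-54, at 0.08, the nearest to spn-4 was the neuronal gene snb-1, at 0.27, and the nearest to pie-1 was the sperm gene spe-11, at 0.04.

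For each of the 10, only the nearest annotated protein-coding gene was examined as a possible source of reads, and it overlapped few of them. Non-coding genes and other neighbours were not examined. The annotated ends of spn-4 and ZC404.15, on the opposite strand, overlap by 8 bp, and those of pie-1 and snr-6, also on the opposite strand, by 24 bp. ZC404.15 was low, with 0.37 and 0.66 RPKM in replicates 1 and 2. snr-6, a splicing factor gene, had 186 RPKM in replicate 1 and 196 RPKM in replicate 2, several times the level of pie-1, and the use of strand in counting is not given in the sources used here. mex-5 is separated by 8 bp from W02A2.8, which had 5.36 RPKM in replicate 1 and 5.04 RPKM in replicate 2. For the other genes the nearest protein-coding gene was 66 bp or more away.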

How the data were processed

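Total RNA of 2 samples of 1 strain was sequenced, and the authors' deposited table gives RPKM per gene for each replicate, per the file headers. CASAVA 1.8.2 is named in the submitters' processing notes; the build, annotation, aligner and counting tool were not given in the sources used here. Commas in values of 1000 or more (205 in replicate 1, 208 in replicate 2) were removed and the range was checked. Of 19990 rows, 104 with coordinates in their name and 12 with a name shared by other rows were left out. Release 115 of WBcel235 held 16043 names as symbols and 2846 as sequence names, and 985 were unmatched; positions and lengths are from it.

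Depth was estimated from values whose RPKM times coding length (300 to 1000 bp) gives whole multiples, within 0.1 read, for 87.5% of 2445 low values of replicate 1 and 87.7% of 2051 of replicate 2 (chance gives 20%). This estimate was tested on simulated reads made with the same coding lengths. That test cannot show whether those lengths match the ones behind the deposited values. Reads use the longest coding isoform. Both samples form 1 group, so no test was made. A pseudocount of 1 RPKM was used in log2 ratios. Ratio intervals are exact Clopper-Pearson intervals. Members and lists were chosen with earlier results of these data known; all members and listed genes may be named. Alternatives were pseudocounts, filters, scalings and leaving out each replicate. Calculations used scipy 1.17.1, pandas 2.3.3 and numpy 2.4.6 under Python 3.11.15, with figures drawn in matplotlib 3.10.9.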

Additional observations from a re-analysis of the deposited data

How the results depend on the processing

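The median of the 10 genes was 90.05 RPKM, 88.7 to 91.4 RPKM with 1 replicate left out, 85.5 RPKM when both replicates were scaled to a total of 1000000 RPKM, which lowers every value, and 90.1 RPKM after quantile normalization. The ratio of pos-1 to pie-1 was 9.55 on the means, 9.22 to 9.90 with 1 replicate left out and 9.56 with equal totals. The order by mean level was kept under equal totals and quantile normalization. The median log2 ratio of replicate 2 to replicate 1 ranged from -0.10 with equal totals to -0.05 when the median of all genes was set to 0. The number of genes lower in replicate 2 was 7, and 10 with equal totals, where 61.6% of all genes were lower. Ratios need both replicates, so they have no value with 1 left out. Of all genes, 55.5% were lower in replicate 2, 57.4% with no filter on low values and 55.8% at a mean of at least 5 RPKM. Of 20 levels of single genes under equal totals or quantile normalization, 14 lay within 1 SD of the mean and 6 moved further, all with equal totals. With n = 2, leaving out a replicate cannot move a level by more than 1 SD, so it says nothing about stability. No paired analysis was possible because there is 1 group. With 2 samples the SD itself is uncertain, and the depth limits pie-1 most, at 635 reads.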

Other observations

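mex-1, which encodes another CCCH finger protein of the early embryo, appeared only in 2 rows named by coordinates and was therefore left out of its list, whose median of 15.6 RPKM becomes 27.2 RPKM with the higher row. One row held 45.4 RPKM for replicate 1 and 50.2 for replicate 2, and the other held 0.43 and 0.21 RPKM.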
